A study of Mus musculus with 4 samples.

Results

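The tumour suppressor p53, encoded by Trp53 in the mouse, and the kinases that signal DNA damage to it were followed as a set of 37 genes on whole-genome expression arrays of mouse embryonic stem (ES) cells depleted of Rif1. The set is defined by name: every probe whose gene name in the array files equals 1 of the 37 symbols was taken, on all 4 arrays. All 37 genes were found, by 46 probes of 39429 on the array and among 30191 gene names or unnamed features in all. Of the 37, 29 genes had 1 probe, 7 had 2 and 1, Cdkn1a, had 3. Where a gene had several, the probe with the highest mean level over the 4 arrays stands for it, and the others are given where they differ.

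Each condition was measured on 1 array of total RNA from E14tg2a cells, an established mouse ES cell line grown with serum and leukemia inhibitory factor. The paper states that its transcriptome experiment was repeated independently, but the arrays used here hold 1 per condition. The untreated cells, taken here as 0 h, were not transfected, and the methods give no harvest time for them. The control cells received a control siRNA and were harvested at 72 h. The Rif1-depleted cells received siRNA against Rif1, which the methods give as mRif1#2 plus NC#1, and were harvested at 48 h or at 72 h. The 48 h sample therefore has no control of its own time among the arrays used here, and in the comparison of control siRNA with untreated cells transfection and time cannot be told apart. An siRNA lowers its target rather than removing it, and bulk RNA averages over all cells of a dish. Fewer cells of a type and less RNA per cell cannot be told apart in such data.

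DNA damage and stalled replication forks activate the kinases Atm and Atr, which act through Chek2 and Chek1 and, directly and indirectly, on p53. Stabilised p53 then binds DNA at paired copies of a short motif and raises the transcription of genes for cell-cycle arrest, DNA repair and cell death, as well as of Mdm2, the ubiquitin ligase that degrades it. Much of this control acts on proteins and is not seen in mRNA levels. Rif1, the depleted protein, regulates the timing of DNA replication and also acts in the choice of repair pathway at broken DNA ends.

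Of the 37 genes, 0 were over 2-fold higher or lower in Rif1-depleted cells than with control siRNA at either time, beside 3.32% and 1.73% of all genes tested at 72 h and 3.83% and 2.00% at 48 h. Past a fold of 1.5, Pmaip1, which encodes the cell death inducer Noxa, was higher at 72 h, and Rrm2b, a ribonucleotide reductase subunit read close to background, was higher at 48 h alone, a call that was lost with normexp or quantile normalization and that turned in direction with the mean over both probes. Of the 36 genes well above background on all 4 arrays, 12 were lower on both Rif1 siRNA arrays than on both others, beside 44.2% of all genes, and 9 were higher on both, beside 17.9%. The lower ones include Cdkn1a (p21), Bbc3 (Puma), Gadd45a and Bax, each by less than 1.5-fold. The higher ones include Pmaip1 and, by less than 1.5-fold at both times, Plk2, Plk3, Sesn1 and Xpc. Sesn1 was only 0.02 above control siRNA on the log2 scale at 48 h. Apart from Cdkn1a and Pmaip1, the genes named as lower or higher were picked as examples after their values were seen. By the probes that stand for them, Trp53, Mdm2, Atm, Atr, Chek1, Chek2 and Brca1 differed from control siRNA by 0.30 or less in log2 at either time. A dim second probe of Atr gave 0.52 at 48 h.

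The sequences behind these readings are shown first. RefSeq promoter windows, which run from 250 bases before to 50 after a start site on GRCm38.p6, were matched by symbol for 29 of the 37 genes, with 35 windows in all. No window was matched for Rrm2b, Ddb2, Perp, Trp53inp1, Xpc, Pmaip1, Zmat3 and Tnfrsf10b. Each window was searched for the p53 half-site consensus, a motif of 10 bases that is its own reverse complement, so that a single scan reads both strands. The windows of 11 of the 29 genes (37.9%) held a match, against 9.55% of the 27025 genes of the table and 8.36% of its 32851 windows. They are Aen, Bax, Ccng1, Cdkn1a, Ckap2, Ei24, Gadd45a, Mdm2, Polk, Sesn1 and Trp53. Cdkn1a alone had a pair of matches at most 13 bases apart, as 0.0740% of all genes did. The 3 windows below belong to genes that were lower on both Rif1 siRNA arrays, and capitals mark the matches to the half-site consensus. They lie on chr17:29090729-29091028 (plus strand) for Cdkn1a, chr6:67037358-67037657 (minus strand) for Gadd45a and chr7:45466849-45467148 (minus strand) for Bax, all on GRCm38.p6.
Cdkn1a: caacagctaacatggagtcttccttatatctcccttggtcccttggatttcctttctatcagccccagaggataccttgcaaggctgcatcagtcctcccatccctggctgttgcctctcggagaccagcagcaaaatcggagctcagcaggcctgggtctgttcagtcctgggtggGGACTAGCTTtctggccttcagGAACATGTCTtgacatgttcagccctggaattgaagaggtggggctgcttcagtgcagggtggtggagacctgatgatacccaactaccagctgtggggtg
Gadd45a: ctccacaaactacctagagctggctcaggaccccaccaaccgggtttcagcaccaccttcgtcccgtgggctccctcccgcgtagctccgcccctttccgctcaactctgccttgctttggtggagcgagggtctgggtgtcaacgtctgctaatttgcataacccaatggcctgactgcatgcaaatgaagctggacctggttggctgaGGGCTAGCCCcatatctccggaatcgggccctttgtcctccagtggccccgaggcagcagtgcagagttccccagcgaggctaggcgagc
Bax: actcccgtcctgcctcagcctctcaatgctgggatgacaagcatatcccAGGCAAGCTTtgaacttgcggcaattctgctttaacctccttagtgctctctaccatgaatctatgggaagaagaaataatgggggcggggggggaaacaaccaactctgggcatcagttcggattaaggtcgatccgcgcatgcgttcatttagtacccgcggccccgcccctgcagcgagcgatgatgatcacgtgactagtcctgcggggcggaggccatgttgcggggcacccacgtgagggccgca

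In the Cdkn1a window the first match started at position -73 relative to the start site, and 12 bases separated it from the second. The Gadd45a match started at -40 and the Bax match at -201. The second Cdkn1a window, which lies downstream on chr17:29093519-29093818, and the 3 windows of Bbc3 held none. This says only that these letters are not in those windows. Cdkn1a, Polk and Sesn1 had a match in some but not all of their windows and are counted as genes with a match. A match is a description of the sequence and not a measured binding site.

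The probes are 60 bases long, and the first 30 bases are given for probes of Cdkn1a, Atr, Eda2r, Polk, Bbc3 and Rrm2b, to show which part of each gene the values below were read from. The Pmaip1 probe is not printed here. On mm9, the build of the array files, the Cdkn1a probes lie at chr17:29237377-29237436 (NM_007669), chr17:29227986-29228045 (NM_001111099, the transcript with the upstream start) and chr17:29235299-29235358 (ENSMUST00000122348), all on the plus strand. The Atr probes lie at chr9:95851956-95852015 (NM_019864) and chr9:95804322-95804381 (AK142244), on the plus strand. The Eda2r probes lie at chrX:94534281-94534340 (NM_001161433) and chrX:94531320-94531379 (NM_175540), on the minus strand. The Polk probes lie at chr13:97251653-97251712 and chr13:97256835-97256894 on the minus strand, both NM_012048. The Bbc3 probe lies at chr7:16903403-16903462 on the plus strand, and the Rrm2b probe at chr15:37853821-37853880 on the minus strand.
Cdkn1a, NM_007669: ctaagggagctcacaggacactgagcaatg
Cdkn1a, NM_001111099: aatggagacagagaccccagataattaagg
Cdkn1a, ENSMUST00000122348: tggggtagtttccatagtgacccgggtcct
Atr, NM_019864: tgaaggacatgtgcattacctcatacaaga
Atr, AK142244: tgcctgctggtaagcatgaagattggagtt
Eda2r, NM_001161433: cctcagagagccattctcaatgggtccata
Eda2r, NM_175540: aatttggaagcaagcttaccttacattgta
Polk, first probe: tgtgagcagatgcagttagaatcggccatg
Polk, other probe: aagtaaaaactcgtgcatctaccgttccgg
Bbc3: tgggagcggggagggacggcccagcctgta
Rrm2b: gtaatgatcatttaactaaattactaatta

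A level below is the processed signal of a probe over the 75th percentile of that array's spots, and it is compared only with levels of the same probe. A difference is the log2 ratio of 2 levels. With 1 array per condition there is no replicate, so no difference below has a test, a p-value or a replicate error. Other yardsticks were at hand. Between control siRNA and untreated cells, the log2 differences of all probes had an SD of 0.125 at levels over 1, 0.234 at levels from 0.1 to 1 and 0.424 at levels under 0.1, which mixes array noise with any effect of transfection and time. The error that the scanner software assigns to a single signal gives about 0.204 for the log2 difference of a bright probe. Repeated spots of a probe on the same array had a median SD of 0.062 to 0.067. Spots counted as well above background came to 58.8% (untreated), 62.8% (control siRNA), 71.5% at 48 h and 74.1% at 72 h of Rif1 siRNA, and the lowest level among them, called the floor, was 0.0236, 0.0159, 0.00779 and 0.00543 in the same order. Dim probes are thus read with different floors. Of the 37 genes, 36 were well above background on all 4 arrays and Rrm2b on 3.

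The level of Rif1 itself was 5.55 untreated, 5.42 with control siRNA, 2.15 at 48 h and 4.15 at 72 h of Rif1 siRNA, so the log2 difference from control siRNA was -1.34 at 48 h and -0.39 at 72 h. The depletion was thus deeper in mRNA at 48 h, whereas the summed level of 7 genes of the 2-cell-like state was 11.4, 19.0, 208 and 235 in the same order. Zscan4c, Zscan4f and Gm4340 gave 53.1, 81.4 and 56.3 of the 48 h sum. Against control siRNA, 6 of the 7 were over 2-fold higher at both times. Zfp352 was at -0.22 at 48 h and 0.12 at 72 h. All 10 ES cell markers were well above background on the 4 arrays, with summed levels of 392, 391, 388 and 369, of which Dppa5a alone gave 145, 138, 129 and 118. Of the 10, Pou5f1 passed 1.5-fold, at 0.59 above control siRNA at 72 h, and stood 0.15 above it at 48 h. Fibroblast feeder markers (6 genes) summed to 4.22, 3.80, 4.44 and 4.46, of which Thy1 alone gave 3.50, 3.11, 3.43 and 3.24. Of these, Postn did not rise well above background anywhere. Past 1.5-fold at 72 h were Col1a1 and Col1a2, at 0.82 each, and Dcn at 0.65, with 0.53, 0.55 and 0.31 at 48 h. Col3a1, not well above background with control siRNA, was higher by at least 0.59 on the log2 scale at 48 h. By the methods, E14tg2a cells were grown on gelatin and not on feeders. The 8 markers of endoderm and germ layers summed to 2.07, 1.62, 1.86 and 1.49. Cdx2, a dim reading in that sum, ran against its order, at 1.08 above control siRNA at 72 h and 0.53 at 48 h. T and Fgf5 were also above control siRNA, by 0.23 and 0.26 at 72 h and by 0.45 and 0.34 at 48 h. Gata6, Gata4, Sox17, Foxa2 and Pax6 were below it at 72 h. Foxa2 was 0.63 above control siRNA at 48 h and at -0.12 at 72 h. What part such shifts in the cells' state have in the values below was not tested.

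Counted over the 37 genes, 1 was over 1.5-fold higher at 72 h of Rif1 siRNA against control siRNA, beside 6.33% of the 20206 genes tested, and 0 were lower, beside 3.24%. At 48 h, 1 was higher, beside 7.81% of 20201 genes, and 0 were lower, beside 4.27%. From 48 h to 72 h of Rif1 siRNA, 0 were higher, beside 2.72% of 22420 genes, and 1, Rrm2b, was lower, beside 3.47%. Between control siRNA and untreated cells, 0 were higher and 0 lower, beside 2.42% and 3.51% of 18620 genes. With counts of 0 or 1 of 37, no difference between the set and all genes is read from them.

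The order of the 4 arrays was read for the 36 genes well above background on all of them. Both Rif1 siRNA arrays were above both others for 9 genes (Atm, Eda2r, Gadd45g, Plk2, Plk3, Pmaip1, Sesn1, Sesn3 and Xpc), beside 17.9% of 17491 genes. They were below both others for 12 genes (Bax, Bbc3, Cdkn1a, Ckap2, Ddb2, Ei24, Gadd45a, Phlda3, Polk, Sesn2, Tnfrsf10b and Trp53), beside 44.2%. Lower levels on both Rif1 siRNA arrays were thus common among all genes. The gap between the nearest arrays was largest for Pmaip1 above (0.51) and for Bbc3 (-0.36) and Cdkn1a (-0.29) below. Every other gap was smaller than the 0.204 that the software error gives for a bright probe. The smallest were those of Sesn1 above (0.02) and Sesn2 below (-0.02), and that of Trp53 was -0.04. The place of Eda2r depended on the probe.

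Trp53 had levels of 1.10 untreated, 1.04 with control siRNA, 0.896 at 48 h and 1.01 at 72 h of Rif1 siRNA. Both Rif1 siRNA arrays lay below both others, and the 48 h array was the lowest, with differences from control siRNA of -0.21 at 48 h and -0.04 at 72 h. Mdm2, the ligase of p53 and its target, read 15.8, 16.3, 15.9 and 14.4 in the same order. The 72 h array was the lowest, at -0.18 against control siRNA, while the 48 h array lay between the untreated and the control array. Ccng1, which encodes cyclin G1, a target of p53 that acts back on Mdm2, read 3.52, 4.06, 4.16 and 3.49. Its 72 h level was close to the untreated level and 0.22 below control siRNA on the log2 scale, whereas the 48 h level was close to that of control siRNA (0.03).

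**Figure D1:**
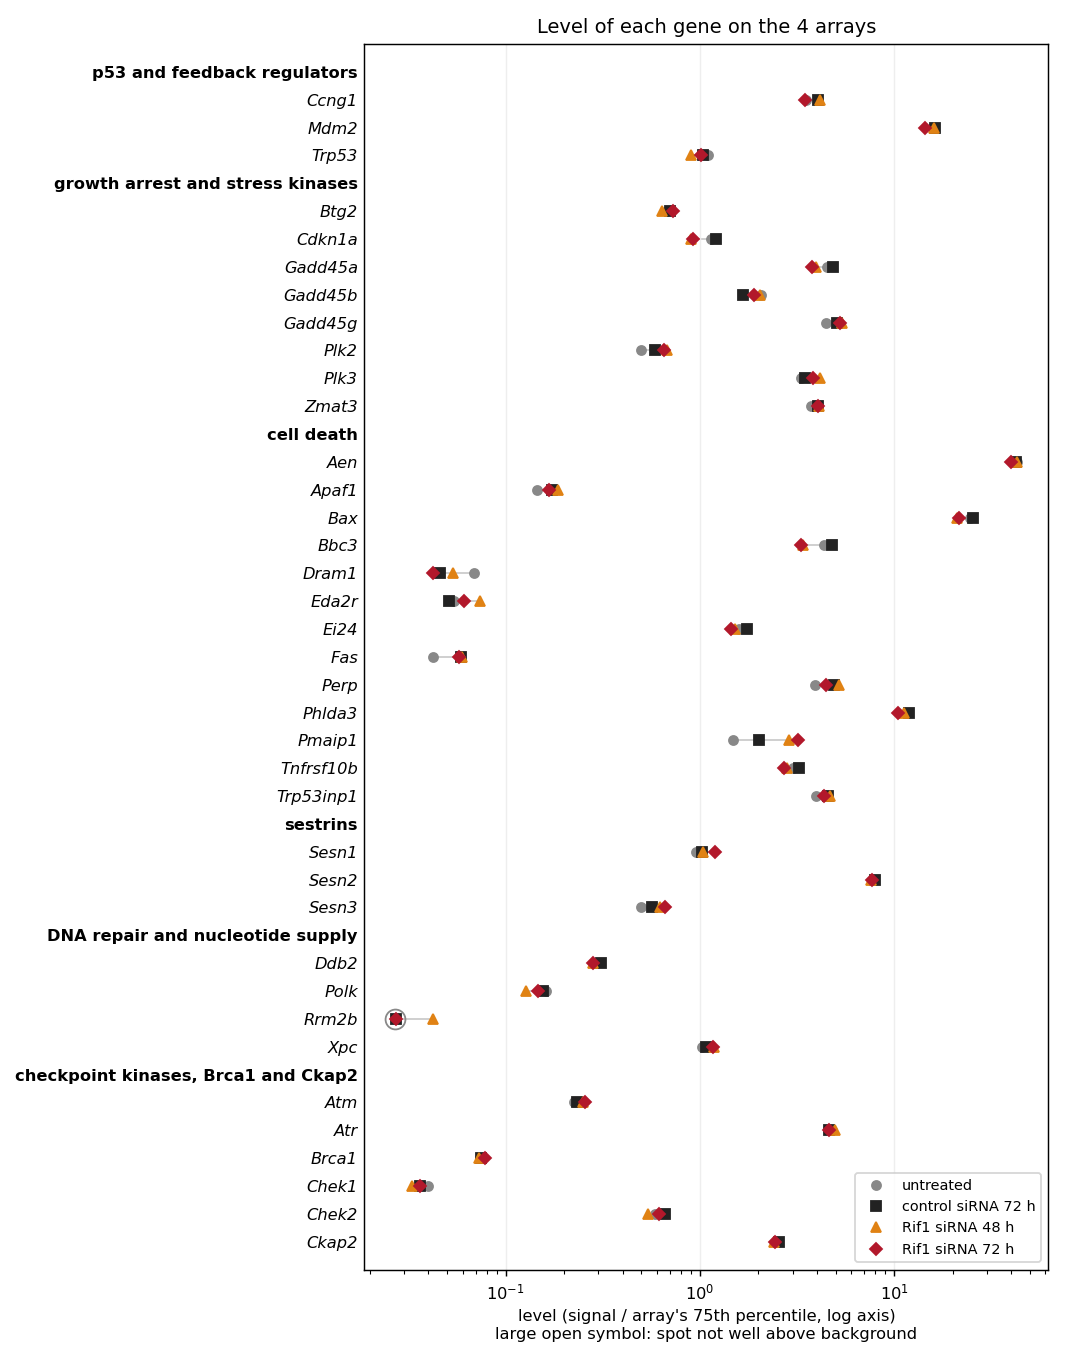
Level of each of the 37 genes on the 4 arrays (x axis, processed signal over the array's 75th percentile, log axis), 1 symbol per array, grouped by role. Most symbols of a gene overlap, Pmaip1 runs from 1.49 in untreated cells to 3.18 at 72 h of Rif1 siRNA, and the large open symbol marks Rrm2b in untreated cells, the only reading not well above background.

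Among the 8 genes of growth arrest and stress kinases, 0 passed 1.5-fold in any comparison, where the shares over all genes run from 2.42% to 7.81%. At 72 h 5 were above and 3 below control siRNA, as at 48 h, while 39.6% and 41.5% of all genes were above it. Cdkn1a, the inhibitor of cyclin-dependent kinases that carries out p53-dependent arrest, had levels of 1.13 untreated, 1.20 with control siRNA, 0.901 at 48 h and 0.924 at 72 h of Rif1 siRNA. Its differences from control siRNA were -0.42 at 48 h and -0.38 at 72 h, and its difference between control siRNA and untreated cells was 0.09. Only 7.70% of all genes tested were lower than Cdkn1a in the 48 h comparison and 7.01% in the 72 h comparison.

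The probe of Cdkn1a was printed 10 times on each array. Its spots ran from 1.07 to 1.22 on the untreated array, from 1.16 to 1.26 on the control siRNA array, from 0.869 to 0.918 at 48 h and from 0.875 to 0.959 at 72 h. The spots of the Rif1 siRNA arrays did not overlap those of the other arrays, with SDs over spots of 0.030 to 0.053 on the log2 scale. Spots share the RNA and the array, so this spread covers the reading of an array and not the variation between cultures. The probe for the transcript with the upstream start, NM_001111099, was dimmer, with levels of 0.0817, 0.0711, 0.0580 and 0.0583. It was also lowest on the Rif1 siRNA arrays, by 0.29 against control siRNA at both times, but it was lower with control siRNA than in untreated cells (-0.20). The ENSMUST00000122348 probe was well above background on the Rif1 siRNA arrays only, at 0.0155 on each, which lies under the floors of both other arrays.

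**Figure D2:**
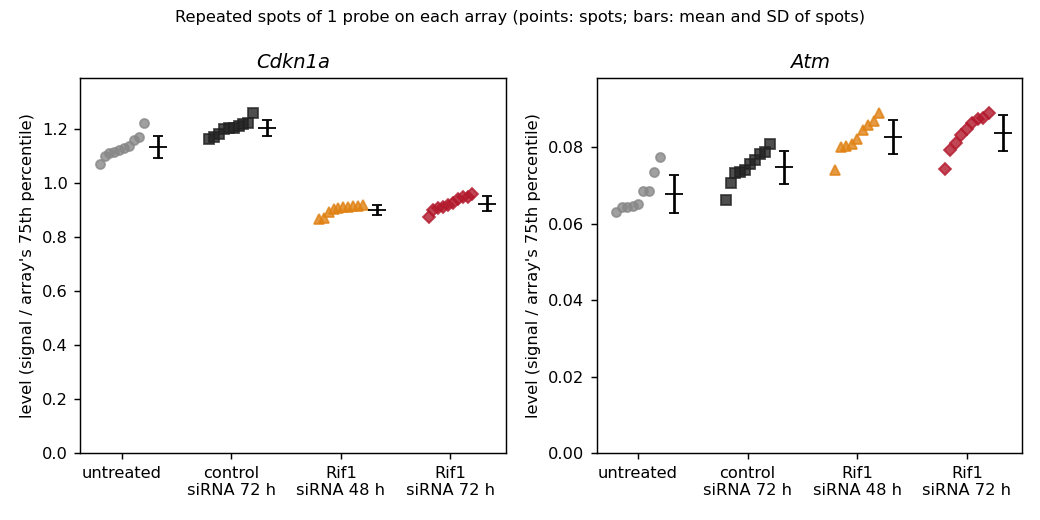
Levels of the repeated spots of a Cdkn1a probe and of the dimmer Atm probe on the 4 arrays (y axis, processed signal over the array's 75th percentile, starting at 0). Points are spots ordered by level, and bars are the mean and SD over spots of the same array. The Cdkn1a spots fall into an upper pair and a lower pair of arrays, at means of 1.13 and 1.20 against 0.901 and 0.924.

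Gadd45a, a damage-induced gene of arrest and repair that is named here, like Btg2 and the genes that follow in this group, after its values were seen, read 4.52 untreated, 4.84 with control siRNA, 3.94 at 48 h and 3.78 at 72 h. Both Rif1 siRNA levels lay below both others, with differences from control siRNA of -0.30 and -0.36. Its relatives gave other values. Gadd45b was lowest with control siRNA, with differences of 0.28 at 48 h and 0.18 at 72 h, but its Rif1 siRNA levels (2.03 and 1.89) lay just under the untreated level of 2.06. Gadd45g was 0.10 and 0.06 above control siRNA. The polo-like kinases Plk2 and Plk3, which respond to stress, were above both other arrays at both times, Plk2 by 0.21 and 0.16 against control siRNA and Plk3 by 0.26 and 0.14. Plk2 was also 0.24 higher with control siRNA than in untreated cells. Btg2, an antiproliferative target of p53, differed by -0.15 at 48 h and 0.05 at 72 h, and Zmat3, a zinc finger protein that binds RNA, by 0.01 and -0.01.

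The 13 genes of cell death held both the highest and the lowest log2 difference of the set at 72 h. Pmaip1, on mm9 at chromosome 18, 66625088 to 66625147, encodes Noxa, a BH3-only protein that binds Mcl1. Its level was 1.49 untreated, 2.03 with control siRNA, 2.89 at 48 h and 3.18 at 72 h of Rif1 siRNA. Each Rif1 siRNA array was above both others, by 0.51 at 48 h and 0.65 at 72 h against control siRNA, the latter 1.57-fold. Control siRNA was itself 0.45 above untreated cells, so that against untreated cells the differences were 0.96 and 1.10. In the 72 h comparison 5.55% of all genes tested were higher than Pmaip1, and 9.15% in the 48 h comparison.

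Bbc3 encodes Puma, the other BH3-only protein among the genes of the set, and it ran the opposite way. Its level was 4.35 untreated, 4.77 with control siRNA, 3.40 at 48 h and 3.32 at 72 h. Both Rif1 siRNA levels lay below both others, at -0.49 and -0.52 against control siRNA, or 1.40-fold and 1.43-fold lower, just short of the 1.5-fold limit. In the 72 h comparison 3.88% of all genes tested were lower than Bbc3. Bax, the pore-forming effector downstream of these proteins, read 24.6, 25.5, 21.1 and 21.4. Again both Rif1 siRNA arrays were the lower pair, at -0.27 and -0.25. Ei24, a protein of the endoplasmic reticulum, Phlda3, an inhibitor of Akt, and Tnfrsf10b, a TRAIL death receptor, were likewise lower on both Rif1 siRNA arrays than on both others, with differences at 72 h of -0.27, -0.18 and -0.24. The Ei24 and Tnfrsf10b probes each share a run of 16 bases with probes of other names, so their signals may not be theirs alone.

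At 72 h, 11 of the 13 cell death genes were below control siRNA, with a median of -0.12, while 39.6% of the 20206 genes tested were above control siRNA and their median was -0.06. At 48 h, 8 of the 13 were above it, with a median of 0.02, beside 41.5% of 20201 genes and a median of -0.06. These tallies depend on the reference array, since 10 of the 13 were above untreated cells with control siRNA (median 0.13). Against untreated cells, 7 of the 13 were below at 72 h, while 37.7% of 18934 genes were above, and 7 were above at 48 h, beside 38.7% of 18962 genes. Apaf1, Fas, Perp and Trp53inp1 lay below control siRNA and above untreated cells at 72 h. Apaf1, the scaffold of the apoptosome, differed by 0.11 at 48 h and -0.04 at 72 h. Perp, a membrane protein of desmosomes, was at 0.08 and -0.14 against control siRNA, which was itself 0.32 above untreated cells, so that against untreated cells Perp was at 0.40 and 0.19. Against control siRNA again, Trp53inp1, a stress-induced partner of p53, was at 0.02 and -0.07, and the nuclease Aen at 0.02 and -0.09, in that order. A dimmer Trp53inp1 probe gave 0.02 and 0.08, so the place of this gene among the 11 depends on the probe. Between control siRNA and untreated cells the 2 Trp53inp1 probes gave 0.21 and 0.03. For Aen, the 2 probes overlap by most of their length and are not separate readings. Fas, the death receptor, was dim, with levels of 0.0424 untreated and 0.0588, 0.0592 and 0.0574 on the transfected arrays, so it read higher in all transfected cells. The difference of control siRNA from untreated cells was 0.47, or 0.20 with normexp background correction, and the untreated level was 1.80 times its floor. Fas differed from control siRNA by 0.01 at 48 h and -0.03 at 72 h of Rif1 siRNA.

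Eda2r, a receptor of the TNF receptor family, gave a reading that depended on the probe. By the NM_001161433 probe its levels were 0.0541, 0.0511, 0.0737 and 0.0613, and both Rif1 siRNA arrays were above both others, by 0.53 at 48 h and 0.26 at 72 h against control siRNA. By the NM_175540 probe the levels were 0.0568, 0.0539, 0.0568 and 0.0509, with differences of 0.08 and -0.08. Normexp background correction took the differences of the former to 0.19 at 48 h and -0.01 at 72 h. Dram1, a gene of autophagy, was dim as well, and differed most between the controls, being 0.58 lower with control siRNA than in untreated cells, just inside the 1.5-fold limit (log2 of 0.584963). With Rif1 siRNA, Dram1 was at 0.23 at 48 h and -0.12 at 72 h against control siRNA. Against untreated cells it was at -0.35 and -0.70, so its 48 h direction depends on the reference.

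**Figure D3:**
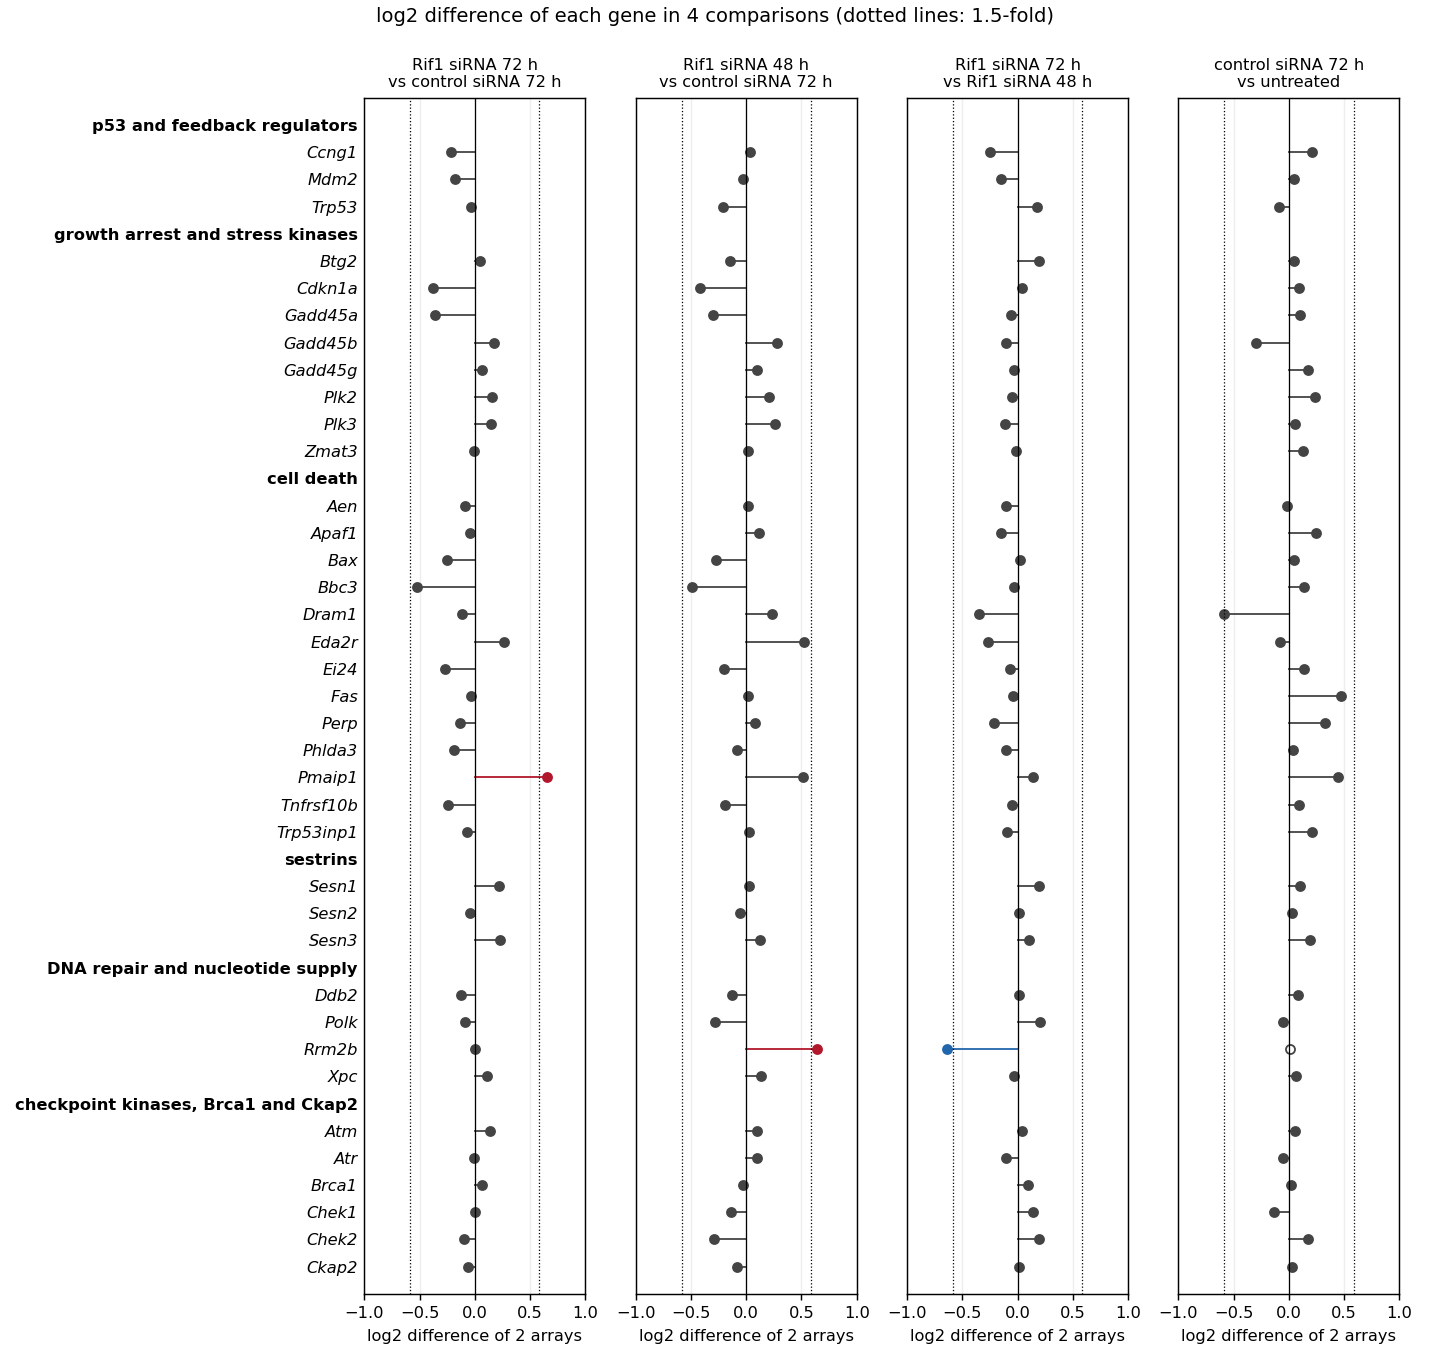
The log2 difference of each of the 37 genes in 4 comparisons of 2 arrays (x axis), grouped by role, with dotted lines at 1.5-fold. Filled red and blue points are past 1.5-fold, namely Pmaip1 in the first panel and Rrm2b in the 2 middle panels, and the open point of Rrm2b in the last panel rests on a bound. The first 2 panels share the control siRNA array.

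The sestrins, which restrain mTORC1 signalling under stress, showed small differences. Sesn1 was above control siRNA by 0.02 at 48 h and 0.22 at 72 h, and Sesn3 by 0.12 and 0.23. For both genes the 2 Rif1 siRNA arrays were above both others. Sesn2 was lower on both, at -0.06 and -0.05, with the 4 levels between 7.64 and 7.94.

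Among the 4 genes of DNA repair and nucleotide supply, Rrm2b provides a p53-inducible subunit of ribonucleotide reductase. Its level was 0.0270 untreated, where the spot was not well above background, 0.0272 with control siRNA, 0.0422 at 48 h and 0.0272 at 72 h. The 48 h array stood apart from the other 3, at 0.64 above control siRNA and 0.64 above the 72 h array, or 1.55-fold. With control siRNA the level was 1.71 times the floor of its array, and a second Rrm2b probe was dim on all 4 arrays, so this difference rests on dim spots. It was 0.11 with normexp background correction and 0.51 with quantile normalization, both short of 1.5-fold, and it turned to -0.55 with the mean over all probes. Polk, a translesion polymerase, was lower at 48 h (-0.29) than at 72 h (-0.09), and its second probe gave -0.07 and -0.05. Xpc and Ddb2, which recognise damage in nucleotide excision repair, ran in opposite directions, Xpc at 0.14 and 0.11 and Ddb2 at -0.13 and -0.12.

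None of the checkpoint kinases passed 1.5-fold against control siRNA, beside 6.33% of all genes higher and 3.24% lower at 72 h. At 48 h those shares were 7.81% and 4.27%. The brightest probes ran from -0.30 (Chek2 at 48 h) to 0.14 (Atm at 72 h). Atm read 0.225 untreated, 0.233 with control siRNA, 0.250 at 48 h and 0.257 at 72 h, so both Rif1 siRNA arrays were above both others, by 0.10 and 0.14. Its second probe, printed 10 times with 9 or 10 spots kept, gave 0.0675, 0.0746, 0.0824 and 0.0835, or 0.14 and 0.16. On that probe the spots of the 4 arrays overlapped, from 0.0631 to 0.0774 untreated, 0.0661 to 0.0809 with control siRNA, 0.0740 to 0.0890 at 48 h and 0.0744 to 0.0889 at 72 h. The first Atm probe shares 16 bases with an unnamed probe.

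Atr, the kinase of stalled forks, read 4.81, 4.62, 4.96 and 4.61, with differences of 0.10 at 48 h and 0.00 at 72 h, and its 4 levels had no order by siRNA. The dim AK142244 probe read 0.0380, 0.0316, 0.0451 and 0.0346, with 0.52 at 48 h and 0.13 at 72 h, which did not reach 1.5-fold. Chek1, the kinase downstream of Atr, was read near the floor, at 0.0399, 0.0364, 0.0331 and 0.0364, and its 72 h level equalled that of control siRNA (0.00). Chek2, the kinase downstream of Atm, read 0.585, 0.661, 0.539 and 0.616. The 48 h array was the lowest, at -0.30 against control siRNA, and the 72 h level lay between those of untreated and control cells.

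Brca1, which acts in homologous recombination, read 0.0733, 0.0744, 0.0730 and 0.0779, with differences of -0.03 and 0.07. The arrays were not ordered by siRNA beyond a slightly higher 72 h level. Its probe runs from 101359283 to 101363319 on chromosome 11 of mm9, which is longer than the probe itself, so it spans a gap in the genome. Ckap2, a mitotic spindle protein and p53 regulator, was -0.08 at 48 h and -0.06 at 72 h.

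The medians of the set lay near those of all genes. Against control siRNA the median log2 difference was -0.04 at 72 h and 0.01 at 48 h, against -0.06 at both times over all genes tested, and from 48 h to 72 h it was -0.03, against -0.00. With control siRNA against untreated cells it was 0.07, against -0.00, and 29 of 37 genes (78.4%) were higher with control siRNA, against 49.3% of all genes tested. This was the comparison in which the set stood farthest from all genes by its share above 0, with single values between -0.58 and 0.47.

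**Figure D4:**
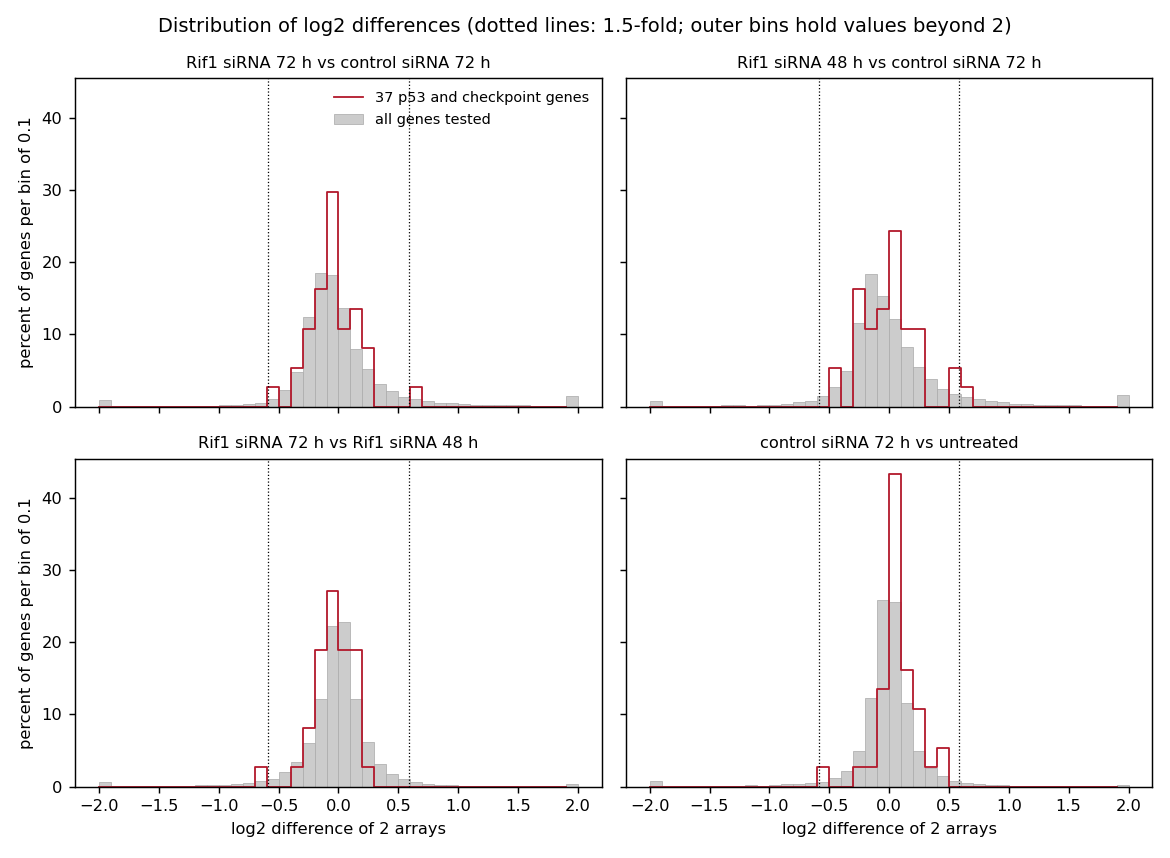
Distribution of the log2 differences (x axis, bins of 0.1) of all genes tested (grey bars) and of the 37 genes (red line) in 4 comparisons, as percent of genes per bin (y axis), with dotted lines at 1.5-fold. The medians of the set and of all genes are -0.04 and -0.06 at 72 h and 0.01 and -0.06 at 48 h against control siRNA, -0.03 and -0.00 from 48 h to 72 h, and 0.07 and -0.00 for control siRNA against untreated cells.

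The promoter windows were set against this order after the values were seen. Of the 11 genes with a half-site match, 7 were below and 1 above, with a median difference of -0.18 at 72 h and -0.20 at 48 h. Of the 18 genes with windows and no match, 3 were below and 6 above, with medians of 0.02 and 0.10. Bbc3, the lowest of all at 72 h, was among the latter. Over all genes well above background with a window of their name, 40.5% of 871 with a match and 41.8% of 9602 without were below, while 157 and 1728 of them were above, with medians of -0.07 and -0.07 at 72 h. The genes of the set were chosen as p53 targets, the split was drawn with the values in view, and the difference was not tested.

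The rest of the pathway was read from a list of 57 further genes of p53 control and the damage response, all of which were on the array, with 56 tested in both comparisons with control siRNA. At 72 h 1 was over 1.5-fold higher and 0 lower, beside 6.33% and 3.24% of all genes, and at 48 h 1 was higher and 1 lower, beside 7.81% and 4.27%. The higher gene was Trp63, the p53 relative, with levels of 1.51, 1.53, 10.7 and 12.4 and differences of 2.80 at 48 h and 3.02 at 72 h. That probe holds 6 CAG units, another Trp63 probe gave 1.39 at 48 h and -0.06 at 72 h, and the other 2 were dim on all 4 arrays. The lower gene at 48 h was H2afx, which encodes the histone variant phosphorylated at DNA breaks and is named because it alone passed 1.5-fold in that direction. Its levels were 35.0, 34.9, 18.7 and 24.9, both Rif1 siRNA levels being the lower pair, at -0.90 and -0.48. The median of the list was -0.05 at 72 h and -0.09 at 48 h.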

How the data were processed

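Gene expression was measured in E14tg2a cells on 4 one-color Agilent arrays, 1 per condition. The authors deposited the output of Agilent Feature Extraction (11.5.1.1 in the submitters' processing notes), which holds, per spot, an intensity after background subtraction (the processed signal) beside the mean and background intensities. The authors also deposited each signal as a linear ratio to that array's 75th percentile, which is an alternative here.

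Levels were computed as the processed signal over the 75th percentile of the 43020 non-control spots. Outlier spots (120 to 152 per array) were left out, no spot was saturated (0 per array), and repeated spots of a probe were averaged in log2. A dim probe took the floor of that array (its lowest level among spots well above background), or its own level if higher, which makes a difference a bound. No difference was given where both sides were dim.

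A gene was called by a fold of 1.5 between 2 arrays, with 2 as an alternative, since 1 array per condition allows no test. An array has no read depth, and precision is limited by the number of arrays. The other alternatives were normexp background correction (offset 50), quantile normalization, scaling on bright probes, the deposited ratios, other treatments of outlier and dim spots, the mean over probes, and untreated cells as reference. Calls were tested on simulated data, with changes of 2-fold or more in probes well clear of the floor. That run does not cover changes near 1.5-fold or readings close to the floor. The members, roles and other gene lists were chosen with earlier results of these data known. Values on all 4 arrays were given for Trp53, Cdkn1a, Mdm2, Ccng1, Atm, Atr, Chek1, Chek2, Brca1 and each member past 1.5-fold, and genes of the wider list were named past 2-fold. Others were named after their values were seen. Probe positions are those of the array files (mm9), and promoters come from RefSeq (GRCm38.p6). The arrays were scanned on 1 slide. The work used limma 3.58.1 in R 4.3.3, and Python 3.11.15 with numpy 2.4.6 and pandas 2.3.3.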

Additional observations from a re-analysis of the deposited data

How the results depend on the processing

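No paired analysis was possible because the groups hold 1 array each, and for the same reason no array could be left out. Over the alternatives, the median log2 difference of the 37 genes ran from -0.10 (normexp) to -0.01 (untreated cells as reference) at 72 h against control siRNA. At 48 h it ran from -0.01 (normexp) to 0.03 (quantile normalization) around 0.01, so its sign changed, as it did with scaling on bright probes. It ran from -0.04 to -0.03 between 48 h and 72 h and from 0.06 to 0.07 between control siRNA and untreated cells. The counts past 1.5-fold moved as follows, and where no reason is given the cause was not tested. At 2-fold, the counts of 1 became 0. At 72 h against control siRNA, the count of lower genes was 1 rather than 0 with the mean over all probes (Rrm2b) and with untreated cells as reference (Dram1). At 48 h, the count of higher genes was 0 with normexp, with quantile normalization, with only probes well above background on all arrays, which leaves out Rrm2b, and with the mean over all probes, and it was 2 with untreated cells as reference (Pmaip1 and Rrm2b). From 48 h to 72 h, the count of lower genes was 0 with normexp, with only probes well above background on all arrays and with the mean over all probes. Between control siRNA and untreated cells, scaling on bright probes gave 1 lower gene (Dram1) rather than 0. The 48 h difference of Rrm2b turned from 0.64 to -0.55 with the mean over all probes, which takes in a probe that was dim on all 4 arrays. Pmaip1 was above 1.5-fold at 72 h under each alternative run, from 0.63 to 1.10, and Cdkn1a, Bbc3, Gadd45a and Bax were below control siRNA at both times under each.

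Precision is limited by 1 array per condition. The 48 h sample is compared with a 72 h control, so siRNA and time cannot be told apart there. Array floors differ, so low readings such as Rrm2b, Chek1, Eda2r, Fas and Dram1 are the least certain.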
